A study of Mus musculus with 8 samples.

Results

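The genes described here encode the proteins of the cytosolic ribosome. They were taken from the annotation by symbol, as every protein-coding mouse gene named Rpl or Rps with a digit, plus Rpsa, Rplp0, Rplp1 and Rplp2, without pseudogenes and without the S6 kinases. The rule gave 86 genes, of which 83 were among the 16341 genes counted and 82 passed the filter on low counts, as did 11717 genes in all. Rps27rt, Rpl10l and Rpl39l were not among the counted genes. Rpl3l, the form of striated muscle, had at most 3 counts in any library and was not tested. The letters of the rule also take in Rps19bp1, which encodes a nucleolar protein that binds Rps19 and is not a subunit.

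The libraries came from 4T1, a mouse mammary carcinoma cell line, separated on magnetic columns by staining for SCA1, the surface protein encoded by Ly6a. There were 4 libraries of 4T1-Sca1+ cells and 4 of 4T1-Sca1- cells, and the comparison asks how these fractions of 1 line differ in gene expression. The source label gives the parental line for both groups, the label of the gate adds that cells were CD45-negative, and the protocol text speaks of a stained tumor, so the material is named here by the marker only. No treatment, genotype or time point separated the groups, and the labels do not say whether the libraries of a group were separate sorts, so that the p-values measure only the spread between these libraries. Ly6a had 167 ± 20.2 against 1.79 ± 1.73 normalized counts in 4T1-Sca1+ against 4T1-Sca1- (counts divided by a size factor of the library; mean ± SD, n = 4 libraries per group), with every 4T1-Sca1+ library above every 4T1-Sca1- library.

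A ribosome joins a small subunit, which holds the mRNA and decodes it, to a large subunit, which forms the peptide bond and releases the chain through a tunnel. Each subunit is built in the nucleolus from ribosomal RNA and 1 copy of nearly every ribosomal protein. The mRNAs of these proteins open with a run of pyrimidines directly at the cap, the 5′ terminal oligopyrimidine tract, through which mTOR and LARP1 set their translation and stability together. Growing cells spend much of their transcription on ribosomes, and several members outside the ribosome bind MDM2 and so bear on p53.

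Pyrimidine runs were found near the annotated starts of most members with a promoter entry. Of the 86 genes, 66 had a promoter entry in the RefSeq-derived table on GRCm38.p6, and 49 of these (74.2%) held a run of at least 8 C or T on the sense strand between 20 bases before and 50 bases after the start. The same held for 28.5% of the 27025 genes with an entry. A run in this window need not lie at the cap, so these are not counts of terminal oligopyrimidine tracts. That of Rps12 began at position 9, counted from the annotated start. The windows below run from 40 bases before to 20 bases after the annotated start, 5′ to 3′ on the gene's strand, with the longest pyrimidine run of at least 8 bases in capitals. They show genes that fell (Rps12, Rpl15, Rps27, Rps6, Rpl7l1), genes with no call (Rpl35, Rpl38) and genes that rose (Rplp2, Rpl22l1), so that the start sequences can be read beside the changes given further on.
Rps12: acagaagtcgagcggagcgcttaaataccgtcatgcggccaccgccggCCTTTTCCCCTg
Rpl15: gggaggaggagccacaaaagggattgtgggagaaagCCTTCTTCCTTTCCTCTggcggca
Rps27: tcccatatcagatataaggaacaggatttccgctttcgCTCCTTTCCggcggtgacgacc
Rps6: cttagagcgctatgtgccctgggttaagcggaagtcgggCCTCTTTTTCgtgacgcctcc
Rpl7l1: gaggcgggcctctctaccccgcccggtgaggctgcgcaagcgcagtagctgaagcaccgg
Rpl35: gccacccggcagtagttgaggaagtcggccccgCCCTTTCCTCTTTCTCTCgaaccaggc
Rpl38: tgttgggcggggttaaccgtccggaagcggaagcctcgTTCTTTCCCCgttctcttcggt
Rplp2: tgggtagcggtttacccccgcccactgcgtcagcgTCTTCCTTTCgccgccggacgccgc
Rpl22l1: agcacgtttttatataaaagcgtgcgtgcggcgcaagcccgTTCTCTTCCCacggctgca

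These windows lie at chr10:23787190-23787249 on the minus strand (Rps12), chr14:18270967-18271026 on the minus strand (Rpl15), chr3:90213629-90213688 on the minus strand (Rps27), chr4:86857348-86857407 on the minus strand (Rps6) and chr17:46782637-46782696 on the minus strand (Rpl7l1). The others are chr2:39005112-39005171 on the minus strand (Rpl35), chr11:114668540-114668599 on the plus strand (Rpl38), chr7:141447611-141447670 on the plus strand (Rplp2) and chr3:28805468-28805527 on the plus strand (Rpl22l1). The run has 17 bases in Rpl15 and 18 in Rpl35, whereas Rpl7l1 has none of 8 or more. Of the 48 tested members with such a run 3 rose and 17 fell (35.4%), with a median log2 fold change of -0.08, and of the 14 with a promoter entry and no run 1 rose and 7 fell, with a median of -0.09. Over all tested genes 31.3% rose and 30.2% fell. The share of members with a run that fell was close to this, whereas the share that rose was far smaller. Motifs were sought on either strand in the 300-base promoters, and a gene counted if any of its promoters held the motif. The letters CCGGAAG, the core bound by ETS family factors, occurred for 39.4% of the 66 members with an entry. They occurred for 9.93% of all 27025 genes with an entry. AAGATGG, the core of the YY1 motif, occurred for 15.2% against 7.28%, in the same order. These motifs share the letters AAG and can overlap. TATAAA was found in 10.6% against 15.7% and CACGTG, the E-box, in 9.09% against 8.09%.

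The libraries held 13561804 to 16968215 counts in genes. The members together took 1.90% ± 0.0239 of the counts in the 4T1-Sca1+ libraries (range 1.87% to 1.92%) and 2.03% ± 0.0372 in the 4T1-Sca1- libraries (1.98% to 2.07%; SD, n = 4). The ranges did not overlap, and the difference was -0.13 percentage points. Small subunit genes took 0.814% to 0.839% in 4T1-Sca1+ and 0.842% to 0.880% in 4T1-Sca1-, and large subunit genes 1.05% to 1.08% and 1.13% to 1.18%. Counts were concentrated in few members. The 9 with most counts held 50% of them and the 20 with most held 79.0%, while the 42 tested members with a mean normalized count under 1000 held 5.25%.

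Levels of single members were therefore uneven, although the proteins are needed in nearly equal numbers. Per kilobase of exon, with all annotated exons of a gene joined, Rplp1, Rps15 and Rpl4 had 34011, 18596 and 16897 normalized counts in the 4T1-Sca1- libraries. Rps13, Rpl35a and Rpl21, the lowest tested members by this measure, had 30.05, 41.1 and 41.7. Their joined exons had 2691, 3526 and 3400 bases and their coding transcripts 589, 491 and 899, whereas Rplp1 had 499 for both. The order of members thus depends on the length used. Levels were lower in members whose sequence recurs elsewhere in the annotation. Of all 75-base windows of a member's coding transcript, the percentage also found in another annotated gene correlated with the level per kilobase at a Spearman rho of -0.55 and Pearson r of -0.55 across the 82 tested members, which share libraries and are not independent. The annotation held 1437 pseudogene copies with at least 85% identity over at least 50% of a coding sequence, and 80 members had 1 or more, but only 17 copies were counted. How reads with several matches were handled is not given in the sources used here, and its part in the levels was not tested. The shared percentage had a rho of -0.08 with the log2 fold change, and r of -0.12. Levels of members such as Rps27 (98.5% of windows shared), Rpl5 (92.5%) and Rpl10 (91.9%) are uncertain to that extent, whereas Rps3 shared no such window.

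**Figure D1:**
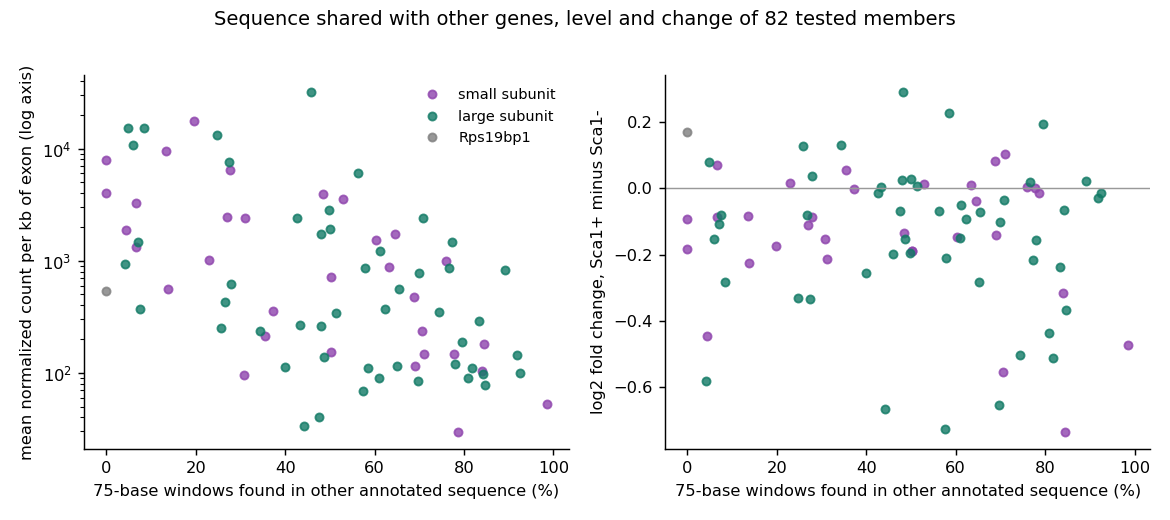
Percentage of 75-base windows of each of the 82 tested members that occur in another annotated gene (x axes), against the mean normalized count per kilobase of exon over all 8 libraries (left, log axis) and against the log2 fold change between the groups (right). Levels are lower at the right of the first panel (rho -0.55), whereas the changes in the second panel show no such slope (rho -0.08).

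Between the groups the members moved downward more often than upward, by small amounts. With edgeR's quasi-likelihood test after TMM scaling, which sets the libraries to a common effective size, and Benjamini-Hochberg adjustment over all tested genes, 34 of the 82 tested members (41.5%) were lower in 4T1-Sca1+ at an adjusted p under 0.05, 4 (4.88%) were higher and 44 were not called. Over all 11717 tested genes 30.2% were lower and 31.3% higher, 61.5% in either direction. The median log2 fold change, 4T1-Sca1+ minus 4T1-Sca1-, was -0.09 for the members and 0.01 for all genes. Library ranges did not overlap for 33 members that were lower and 1 that was higher, beside 27.9% and 26.8% of all tested genes. The higher one was Rps19bp1, which is not a subunit. Without it and the paralogs, 32 of 77 standard subunit proteins were called lower and 2 higher, and none was higher without overlap. Of the 82 tested members 8 were below -0.5, beside 760 of all 11717 tested genes, and no member was above 0.5. Strongly expressed genes in general were tilted the same way. Of the 3985 tested genes at or above 1000 normalized counts on average, 42.8% were lower and 25.7% higher, with a median of -0.07, and of the 40 members at that level 20 were lower and 1 was higher. Genes under that level were tilted the other way, with 23.7% of 7732 lower, 34.2% higher and a median of 0.06, whereas of the 42 members there 14 (33.3%) were lower and 3 (7.14%) higher, with a median of -0.10. In these bulk libraries a lower level per cell cannot be told apart from fewer cells that express the gene, and all changes are relative to the counts of the other genes. Offsets corrected for transcript GC content put 48 members lower and 4 higher with a median of -0.14, whereas scaling by library totals alone put 28 lower and 7 higher with a median of -0.05. The count of higher members was 2 without 4T1-Sca1+ replicate 1 and without 4T1-Sca1- replicate 2, 3 or 4.

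**Figure D2:**
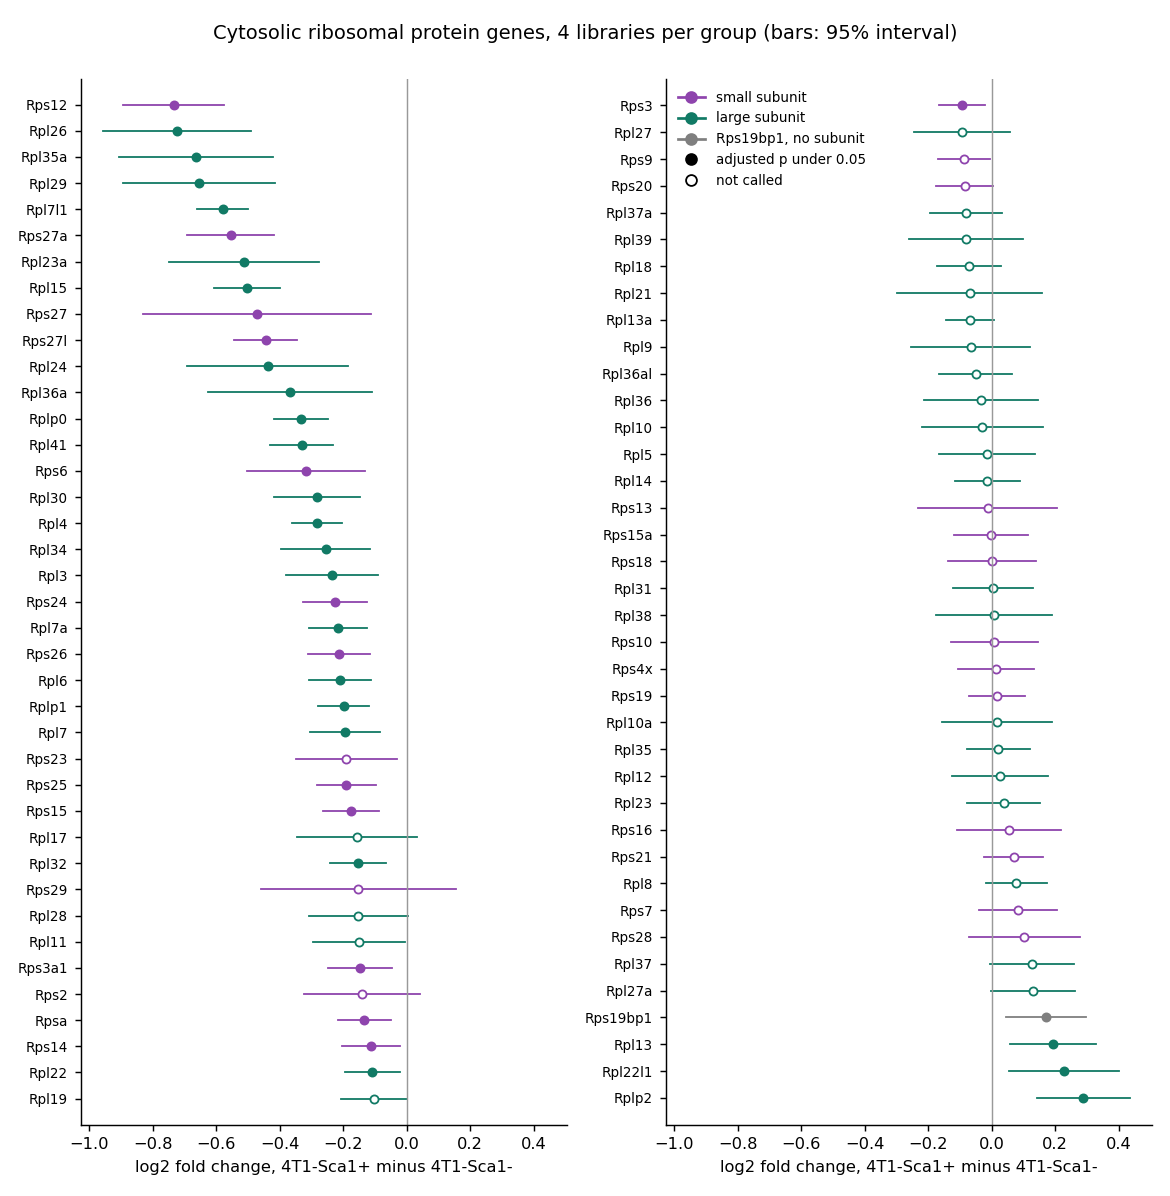
Log2 fold change (4T1-Sca1+ minus 4T1-Sca1-) of 77 of the 82 tested members, from lowest at the top left to highest at the bottom right, with 95% intervals, 4 libraries per group. Filled points passed an adjusted p of 0.05; they run from Rps12 at -0.73 to Rplp2 at 0.29, and the lower calls include both subunits.

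In the small subunit 14 of 32 tested members fell (43.75%) and none rose, beside 30.2% and 31.3% of all tested genes. Of tested genes at or above 1000 normalized counts on average 42.8% fell and 25.7% rose. The lowest of all members was Rps12, a protein of the beak of the subunit (ENSMUSG00000061983, chr10:23785183-23787275, minus strand), with normalized counts of 289, 275, 231 and 288 in the 4T1-Sca1+ libraries and 476, 406, 484 and 458 in the 4T1-Sca1- libraries. All 4T1-Sca1+ libraries were below all 4T1-Sca1- libraries, and the log2 fold change was -0.73 ± 0.08, adjusted p = 5.44e-07, where ± is the standard error. Below, values per library are normalized counts of replicates 1 to 4, and values in parentheses with ± are log2 fold changes with their standard error. Rps12 also overlaps counted small nucleolar RNA genes on its own strand and shared 84.5% of its windows. Rps27a, which is made as a fusion with ubiquitin (chr11:29545846-29548109, minus strand), had 428, 377, 349 and 349 in the 4T1-Sca1+ libraries and 575, 546, 559 and 548 in the 4T1-Sca1- libraries. Its groups did not overlap (-0.55 ± 0.07, adjusted p = 2.35e-06). It overlaps Clhc1 on the opposite strand, and reads of the pair cannot be told apart where strand was not used in counting. Rps6, the substrate of the S6 kinases (chr4:86854660-86857412, minus strand), had 158, 149.9, 129 and 151 in the 4T1-Sca1+ libraries and 195, 201, 174 and 169 in the 4T1-Sca1- libraries. The groups did not overlap, with a narrow gap (-0.32 ± 0.10, adjusted p = 0.0079).

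At the mRNA exit site, where the transcript leaves the small subunit, Rps26 and Rps14 fell. Rps26 (3443 ± 251 against 4029 ± 80.4 normalized counts, 4T1-Sca1+ against 4T1-Sca1-, mean ± SD) changed by -0.21 ± 0.05, adjusted p = 0.00127 and Rps14 by -0.11 ± 0.05, adjusted p = 0.0454. The groups of Rps26 did not overlap, whereas those of Rps14 did, and Rps14 was no longer called under 10 of the 21 other fits, among them those without 4T1-Sca1+ replicate 2 (-0.09) or 4 (-0.10) or 4T1-Sca1- replicate 2 (-0.08), 3 (-0.11) or 4 (-0.12). Another exit protein, Rps28, was not called at 0.10 ± 0.09 (95% interval -0.07 to 0.28). At the entry site, where Rps2, Rps3 and Rps9 form the helicase that unwinds the incoming mRNA, only Rps3 was called with TMM scaling, at 17580, 17116, 17365 and 17285 in the 4T1-Sca1+ libraries and 18263, 18928, 18617 and 18889 in the 4T1-Sca1- libraries. The groups did not overlap, but the change of -0.09 ± 0.04, adjusted p = 0.0366 was the smallest among all called members, and it was lost under 11 of the 21 other fits, among them those without 4T1-Sca1+ replicate 2 (-0.09) or 4 (-0.09) or 4T1-Sca1- replicate 2 (-0.09), 3 (-0.10) or 4 (-0.09). Rps9 was at -0.09 ± 0.04 (95% interval -0.17 to -0.00), and was called without 4T1-Sca1+ replicate 3 (-0.12) or 4T1-Sca1- replicate 1 (-0.11) and by DESeq2 (-0.10). Rps2 was at -0.14 ± 0.09 (-0.32 to 0.04). With GC-corrected offsets the calls were turned around, since Rps2 (-0.26, adjusted p = 0.0109) and Rps9 (-0.12, adjusted p = 0.00328) were called and Rps3 was not (-0.06, adjusted p = 0.0872). Other small subunit members that fell were Rps24, Rps25, Rps15, Rps3a1 and Rpsa, between -0.23 and -0.13, and of these Rps3a1 was not called without 4T1-Sca1+ replicate 2 (-0.14) or 4T1-Sca1- replicate 3 (-0.13) or 4 (-0.13).

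In the large subunit 20 of 49 tested members fell (40.8%) and 3 rose (6.12%), beside 30.2% and 31.3% of all tested genes. Members of both subunits were assigned by symbol, with paralogs, so the 20 include Rpl7l1, described below as linked with assembly. Rpl35a (chr16:33056453-33060189, plus strand), 1 of the genes mutated in Diamond-Blackfan anemia, had 114, 74.0, 83.8 and 89.3 in the 4T1-Sca1+ libraries and 155, 139.6, 155 and 130.1 in the 4T1-Sca1- libraries. The highest 4T1-Sca1+ library was below the lowest 4T1-Sca1- library (-0.66 ± 0.12, adjusted p = 1.72e-04). Rpl15 (chr14:18267823-18271391, minus strand), another such gene, had 758, 675, 681 and 705 in the 4T1-Sca1+ libraries and 1013, 1010.3, 1031 and 977 in the 4T1-Sca1- libraries. It was lower in all 4T1-Sca1+ libraries (-0.50 ± 0.05, adjusted p = 3.16e-07), and it overlaps Nkiras1 on the opposite strand. More strongly expressed was Rpl4, whose loop lines the narrowest stretch of the tunnel (chr9:64173375-64178666, plus strand), with 28514, 28182, 26452 and 27410 in the 4T1-Sca1+ libraries and 32969, 33869, 34472 and 34338 in the 4T1-Sca1- libraries. Each 4T1-Sca1+ library lay below each 4T1-Sca1- library, at a smaller fold (-0.28 ± 0.04, adjusted p = 9.25e-06) but with the greatest loss in counts of any member. Rpl41, the shortest ribosomal protein, fell by a similar fold (-0.33 ± 0.05, adjusted p = 2.25e-05), with 13683 ± 982 against 17368 ± 737 normalized counts in 4T1-Sca1+ against 4T1-Sca1- (mean ± SD).

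**Figure D3:**
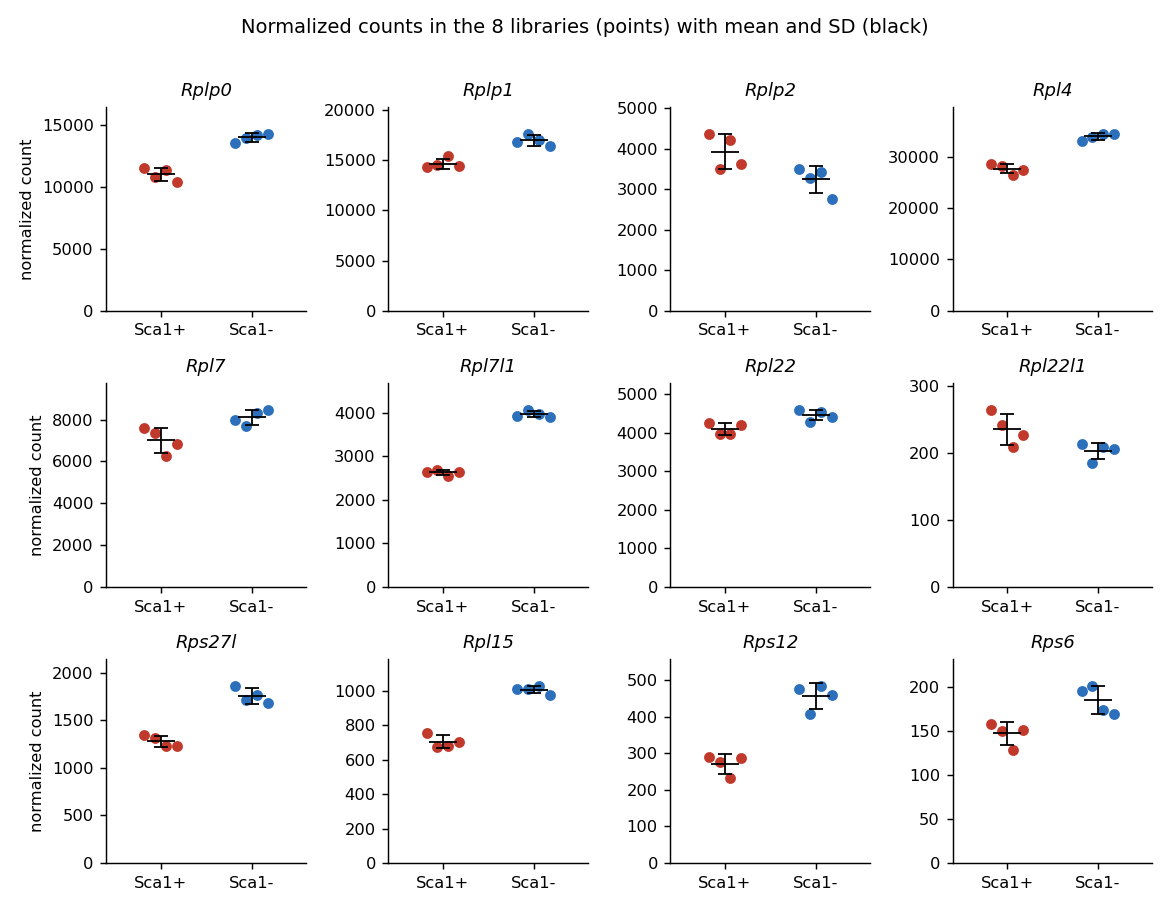
Normalized counts (y axes, each from 0) of 12 members in the 4T1-Sca1+ (red) and 4T1-Sca1- (blue) libraries, with replicates 1 to 4 from left to right and the mean and SD in black. Rplp2 and Rpl22l1 are higher in 4T1-Sca1+ with overlapping ranges, and the other genes shown are lower without overlap.

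Around the exit of the tunnel, where chaperones and targeting factors meet the new chain, the 7 listed members split. Rpl26 (chr11:68901583-68906989, plus strand) had 86.8, 74.9, 63.8 and 73.5 in the 4T1-Sca1+ libraries and 120.3, 143, 116 and 121 in the 4T1-Sca1- libraries. All 4T1-Sca1+ libraries were lower (-0.72 ± 0.12, adjusted p = 4.50e-05) on 63.8 to 143 normalized counts per library. Rpl23a, a docking site of the signal recognition particle (chr11:78180932-78183584, minus strand), had 75.9, 65.1, 81.8 and 80.5 in the 4T1-Sca1+ libraries and 96.5, 105, 125 and 113 in the 4T1-Sca1- libraries. It fell as well (-0.51 ± 0.12, adjusted p = 0.00129), and it overlaps Tlcd1 on the opposite strand and shared 81.7% of its windows. Neither Rpl17 (-0.16 ± 0.10), Rpl19 (-0.10 ± 0.05), Rpl31 (0.00 ± 0.06), Rpl35 (0.02 ± 0.05) nor Rpl39 (-0.08 ± 0.09) was called, with 95% intervals that lay between -0.35 and 0.13. Those of Rpl35 and Rpl31 were -0.08 to 0.12 and -0.12 to 0.13. With GC-corrected offsets Rpl19 (-0.19, adjusted p = 0.00169) and Rpl35 (-0.12, adjusted p = 0.0210) were called lower.

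The proteins that join late in the assembly of the large subunit gave a mixed picture. Rpl29 (chr9:106429454-106431568, plus strand) had 73.1, 59.2, 84.8 and 75.3 in the 4T1-Sca1+ libraries and 121, 109.9, 127 and 106 in the 4T1-Sca1- libraries. The groups were apart (-0.65 ± 0.12, adjusted p = 1.68e-04), and the annotation holds 97 pseudogene copies of it. Rpl24, which forms a bridge to the small subunit, fell by less (-0.44 ± 0.13, adjusted p = 0.00706), with 77.9 ± 14.7 against 106 ± 5.06 normalized counts in 4T1-Sca1+ against 4T1-Sca1-. Rpl10, whose entry completes the subunit, was not called (-0.03 ± 0.10, 95% interval -0.22 to 0.16). The 5S particle, in which Rpl5 and Rpl11 carry the 5S ribosomal RNA into the subunit and which with Rpl23 can bind MDM2, had no called member. Rpl5 was at -0.02 ± 0.08 (-0.17 to 0.14), Rpl11 at -0.15 ± 0.07 (-0.29 to -0.00) and Rpl23 at 0.04 ± 0.06 (-0.08 to 0.15), and Rpl11 was called lower with GC-corrected offsets (-0.20, adjusted p = 0.0197).

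The stalk, the flexible arm that recruits the elongation factors, was the only listed site with called members in both directions. It consists of Rplp0, which holds pairs of the small acidic proteins Rplp1 and Rplp2 on a base next to Rpl12. Rplp0 (ENSMUSG00000067274, chr5:115559467-115563727, plus strand) had 11532, 10793, 11369 and 10402 in the 4T1-Sca1+ libraries and 13543, 14001, 14214 and 14324 in the 4T1-Sca1- libraries. Every 4T1-Sca1+ library was lower (-0.33 ± 0.04, adjusted p = 3.45e-06). Rplp1 (chr9:61913284-61914542, minus strand) had 14297, 14561, 15407 and 14391 in the 4T1-Sca1+ libraries and 16840, 17653, 16978 and 16415 in the 4T1-Sca1- libraries. It too was lower without overlap (-0.20 ± 0.04, adjusted p = 4.27e-04). Rplp2 (ENSMUSG00000025508, chr7:141447370-141451585, plus strand) had 4375, 3503, 4223 and 3624 in the 4T1-Sca1+ libraries and 3504, 3270.1, 3439.6 and 2765 in the 4T1-Sca1- libraries. It was higher, and the highest of all members in fold change (0.29 ± 0.08, adjusted p = 0.00297), although the lowest 4T1-Sca1+ library (3503) lay just under the highest 4T1-Sca1- library (3504). Rpl12 was not called (0.03 ± 0.08, 95% interval -0.13 to 0.18).

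Because Rplp2 and its partners are measured in the same libraries, their ratio does not depend on the scaling. The log2 ratio of Rplp2 to Rplp0 counts was -1.49 ± 0.102 in 4T1-Sca1+ and -2.12 ± 0.181 in 4T1-Sca1- (mean ± SD, n = 4), a difference of 0.62. All 4T1-Sca1+ values (-1.62 to -1.40) were above all 4T1-Sca1- values (-2.37 to -1.95), with a two-sided exact permutation p of 0.0286, the smallest that 4 against 4 libraries allow, and 0.0429 after Benjamini-Hochberg adjustment over the 6 ratios compared. The ratio of Rplp2 to Rplp1 differed by 0.49, again without overlap (exact permutation p = 0.0286, adjusted 0.0429). Rplp2 had 2 annotated pseudogene copies and shared 48.1% of its windows, Rplp0 27.4% and Rplp1 45.9%, and a small nucleolar RNA gene, Snora52, lies inside Rplp2 on the same strand; their part in the ratio was not tested. Leaving out 1 library in turn kept the differences between 0.54 and 0.68 for Rplp0 and between 0.42 and 0.54 for Rplp1, where 3 against 4 libraries allow no exact permutation p below 0.0571. These pairs were chosen with the results known.

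Some members have a second gene for a near relative of the protein, and these paralogs did not follow their partners uniformly. Rpl7l1, a nucleolar relative of Rpl7 linked with large subunit assembly (ENSMUSG00000063888, chr17:46773907-46782672, minus strand), had 2642, 2679, 2554 and 2629.9 in the 4T1-Sca1+ libraries and 3915, 4066, 3962 and 3906 in the 4T1-Sca1- libraries. The groups were clearly apart (-0.58 ± 0.04, adjusted p = 2.10e-09) on a gene that shared 4.21% of its windows. Rpl7 itself fell by less (-0.19 ± 0.06, adjusted p = 0.00626). The log2 ratio of Rpl7l1 to Rpl7 was -1.42 in 4T1-Sca1+ and -1.03 in 4T1-Sca1-, a difference of -0.38 with no overlap (exact permutation p = 0.0286, adjusted 0.0429).

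The paralog of Rpl22 went the other way. Rpl22l1 (ENSMUSG00000039221, chr3:28805436-28807424, plus strand), whose expression Rpl22 is known to repress, had 265, 242, 209 and 227 in the 4T1-Sca1+ libraries and 213, 186, 209 and 205 in the 4T1-Sca1- libraries. It was higher in the fit (0.23 ± 0.09, adjusted p = 0.0335), but the third 4T1-Sca1+ library lay within the range of the 4T1-Sca1- libraries. Rpl22 had 4260.1, 3963, 3979.8 and 4205 in the 4T1-Sca1+ libraries and 4604, 4293, 4539 and 4413 in the 4T1-Sca1- libraries and was slightly lower (-0.11 ± 0.04, adjusted p = 0.0425). As a log2 ratio of Rpl22l1 to Rpl22 the groups did not overlap, at -4.13 ± 0.122 against -4.46 ± 0.0489 (SD, n = 4), a difference of 0.33 (exact permutation p = 0.0286, adjusted 0.0429). Adding the counted pseudogene copies to their parent genes put this difference at 0.48 (exact permutation test, adjusted p = 0.0429). The call of Rpl22l1 was lost under 6 of the 21 other fits, among them DESeq2 and those without 4T1-Sca1+ replicate 1 (0.16) or 2 (0.21) or 4T1-Sca1- replicate 2 (0.18) or 4 (0.23). That of Rpl22 was lost under 9, among them those without 4T1-Sca1+ replicate 2 (-0.09) or 3 (-0.10) or 4T1-Sca1- replicate 1 (-0.10), 3 (-0.10) or 4 (-0.12).

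Rps27l, a p53 target related to Rps27 (ENSMUSG00000036781, chr9:66946086-66949516, plus strand), had 1345, 1312, 1229 and 1232 in the 4T1-Sca1+ libraries and 1866, 1715, 1767 and 1679 in the 4T1-Sca1- libraries. It fell without overlap (-0.44 ± 0.05, adjusted p = 7.37e-07) and shared 4.39% of its windows. Rps27 had far fewer counts, 40.2, 36.5, 64.8 and 41.1 in the 4T1-Sca1+ libraries and 75.4, 54.4, 70.1 and 53.6 in the 4T1-Sca1- libraries, and nearly all of its windows recur, among others in the uncounted Rps27rt. Its call (-0.47 ± 0.18, adjusted p = 0.0332) came with overlapping groups, since the third 4T1-Sca1+ library was above 2 of the 4T1-Sca1- libraries, and it was lost without 4T1-Sca1+ replicate 1 (-0.42), 2 (-0.39) or 4 (-0.43) or 4T1-Sca1- replicate 1 (-0.38) or 3 (-0.43). The ratio of Rps27l to Rps27 differed by 0.04 (exact permutation p = 0.886, adjusted 0.886), and by -0.069 to 0.24 when 1 library was left out. Rpl36al was not called (-0.05 ± 0.06, 95% interval -0.17 to 0.06), Rpl36a fell (-0.37 ± 0.13, adjusted p = 0.0222) with overlapping groups, and their ratio differed by 0.32 with overlap (exact permutation p = 0.0571, adjusted 0.0686). Among the remaining partners of paralogs, Rpl3 fell (-0.24 ± 0.07, adjusted p = 0.0101) and Rps4x was at 0.01 ± 0.06 (95% interval -0.11 to 0.13). The call of Rpl36a was lost without 4T1-Sca1+ replicate 3 (-0.27) or 4T1-Sca1- replicate 1 (-0.35) or 3 (-0.27), and that of Rpl3 without 4T1-Sca1- replicate 3 (-0.17).

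**Figure D4:**
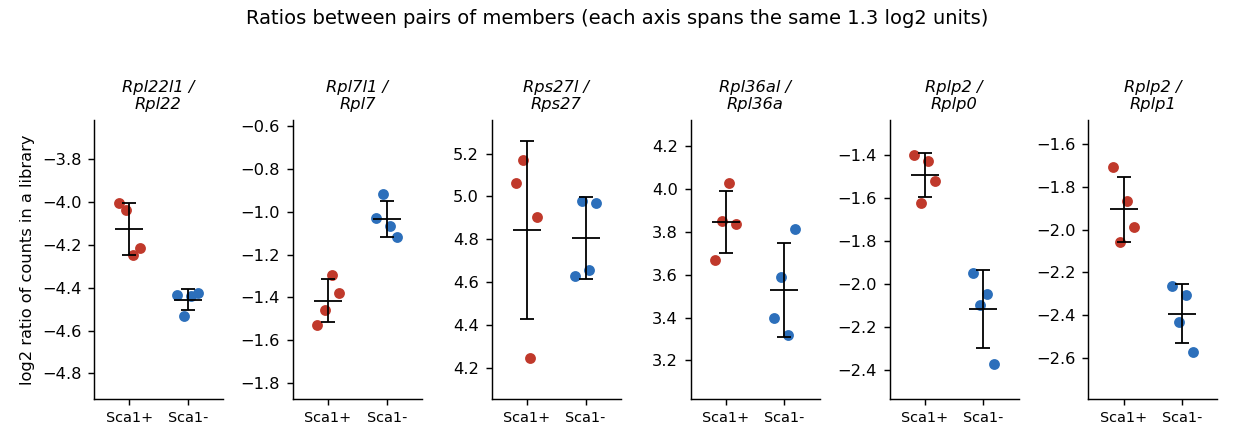
Log2 ratio of the counts of 2 members within each library (y axes, all spanning 1.3 log2 units), for 4T1-Sca1+ (red) and 4T1-Sca1- (blue) libraries with the mean and SD in black. Rplp2 against Rplp0 and Rplp1 and Rpl22l1 against Rpl22 are higher in all 4T1-Sca1+ libraries and Rpl7l1 against Rpl7 is lower in all of them, whereas the groups overlap for Rps27l against Rps27 and for Rpl36al against Rpl36a.

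Beside Rplp2 and Rpl22l1, Rpl13 and Rps19bp1 rose. Rpl13 had 516, 532, 559.6 and 475 in the 4T1-Sca1+ libraries and 486, 491, 421 and 434 in the 4T1-Sca1- libraries, with 1 of the 4T1-Sca1+ libraries inside the range of the other group (0.19 ± 0.07, adjusted p = 0.0212). It was not called without 4T1-Sca1+ replicate 3 (0.16) or 4T1-Sca1- replicate 3 (0.16) or 4 (0.17). Rps19bp1 had 626, 577, 693 and 575 in the 4T1-Sca1+ libraries and 556, 554, 535 and 567 in the 4T1-Sca1- libraries, with the groups just apart (0.17 ± 0.06, adjusted p = 0.0287). It moved to 0.03 and lost its call with GC-corrected offsets, and it was not called without 4T1-Sca1+ replicate 1 (0.16) or 3 (0.11) or 4T1-Sca1- replicate 1 (0.16), 2 (0.17) or 3 (0.15). The next highest members, Rpl27a (0.13 ± 0.07), Rpl37 (0.13 ± 0.07), Rps28 and Rps7 (0.08 ± 0.06), were not called. Rpl27a was called higher with GC-corrected offsets (0.18, edgeR adjusted p = 0.00620), library totals alone (0.17, 0.0373) and upper-quartile scaling (0.16, 0.0438). Rpl37 was called higher with library totals alone (0.17, edgeR adjusted p = 0.0432). With counts of pseudogene copies added to their parent genes Rpl37 reached 0.20 and an adjusted p of 0.000408.

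Members without a call numbered 44. Beyond those named so far they included Rps23, Rps29, Rps20, Rps13, Rps15a, Rps18, Rps10, Rps19, Rps16 and Rps21 in the small subunit and Rpl28, Rpl27, Rpl37a, Rpl18, Rpl21, Rpl13a, Rpl9, Rpl36, Rpl14, Rpl38, Rpl10a and Rpl8 in the large subunit. Their log2 fold changes ran from -0.19 (Rps23) to 0.08 (Rpl8). The widest interval was that of Rps29, -0.46 to 0.15 on 50.8 to 85.6 normalized counts per library, and the interval of Rpl8, the most expressed uncalled member, was -0.02 to 0.17. Rpl38, which is known for the translation of Hox mRNAs, had 194, 162, 207 and 174 in the 4T1-Sca1+ libraries and 202, 183, 173 and 181 in the 4T1-Sca1- libraries. The groups covered each other, at 0.01 ± 0.09 (95% interval -0.18 to 0.19). Leaving out 1 library brought Rps23 under the threshold without 4T1-Sca1+ replicate 4 (-0.23), and Rps20, Rpl18, Rpl28 and Rpl27a without 4T1-Sca1+ replicate 3 (-0.11, -0.11, -0.20 and 0.18). With GC-corrected offsets Rps10, Rpl28, Rpl27, Rpl37a, Rpl18, Rpl13a, Rpl36, Rpl14 and Rpl8 were called lower, between -0.28 (Rpl36) and -0.10 (Rpl8). Rpl8 was called higher with library totals alone (0.12, adjusted p = 0.0305), and Rps21 with length-corrected offsets (0.11, edgeR adjusted p = 0.0471).

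The uncalled Rpl35 and Rpl38 carry the pyrimidine run shown above, as Rpl15 and Rps6 do. Introns of many ribosomal protein genes carry small nucleolar RNA genes. Of the 30 tested members with such a gene inside 2 rose and 11 fell (36.7%), and of the 52 without 2 rose and 23 fell (44.2%). Both shares were near the 41.5% of all tested members that fell, beside 30.2% of all tested genes. The remaining large subunit members that fell were Rpl30, Rpl34, Rpl7a, Rpl6 and Rpl32, between -0.28 and -0.15, each without overlap between the groups.

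Other components of the translation machinery were lower as well. Of the genes linked to the ribosome by fusion or association, Fau, which encodes Rps30 behind a ubiquitin-like domain, fell (-0.40 ± 0.06, adjusted p = 3.25e-05), and Rack1 was not among the counted genes. Of the 10 elongation and termination factors 7 fell and 1 rose, with a median log2 fold change of -0.38. Over all tested genes 30.2% fell and 31.3% rose. Among tested genes at or above 1000 normalized counts on average, as most of these factors were, 42.8% fell and 25.7% rose. Eef2, the translocase, had 85503 ± 4614 against 102535 ± 5031 normalized counts in 4T1-Sca1+ against 4T1-Sca1- and fell (-0.25 ± 0.05, adjusted p = 1.42e-04), as did Eif5a (-0.42 ± 0.05), Eef1g (-0.38 ± 0.05), Eef1e1 (-0.39 ± 0.05), the release factor Etf1 (-0.53 ± 0.06), its partner Gspt1 (-0.40 ± 0.05) and the recycling factor Abce1 (-0.49 ± 0.06). Eef1a1, which brings the aminoacyl-tRNA, was the exception, with 79694 ± 3134 against 75139 ± 1801 and a small rise (0.10 ± 0.04, adjusted p = 0.0442). Eef1d (-0.09 ± 0.05) and Eef1b2 (-0.08 ± 0.05) were not called. Eef1e1, despite its symbol, is not an elongation factor, although it stays in these counts.

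Of 34 tested initiation factors 25 fell (73.5%) and 2 rose (5.88%), beside 30.2% and 31.3% of all tested genes. Their median was -0.24, from Eif2s3x (-0.88 ± 0.06) to Eif4g3 (0.12 ± 0.04). Of 17 importins and dedicated carriers that bring ribosomal proteins to the nucleolus 13 fell (76.5%) and none rose. Their median was -0.30, from Ipo5 (-0.71 ± 0.05, adjusted p = 3.20e-09) to Pdcd2l (0.22 ± 0.10, not called). Of 77 mitochondrial ribosomal proteins 57 fell (74.0%) and 2 rose (2.60%). Their median was -0.27, from Mrpl47 (243 ± 31.2 against 489.9 ± 21.6 normalized counts, mean ± SD) to Mrps33 (0.34 ± 0.18, not called). These medians lay below the -0.09 of the cytosolic ribosomal proteins, and no test of that difference was made. Among 17 tested other genes with a terminal oligopyrimidine tract 7 fell (41.2%) and 4 rose (23.5%), from Hnrnpa1 (-0.62 ± 0.06) to Vim (0.43 ± 0.04). Of the 21 genes that regulate such mRNAs 6 fell and 6 rose (28.6% each, near the 30.2% and 31.3% of all tested genes), with a median of 0.02, from Larp1b (-0.48 ± 0.08) to Deptor (1.55 ± 0.06, adjusted p = 4.31e-13), an inhibitor of mTOR. Of 6 genes of the route from ribosomal proteins to p53 2 fell and 2 rose (33.3% each, also near these shares), from Ccng1 (-0.42 ± 0.07) to Cdkn1a (1.05 ± 0.06).

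**Figure D5:**
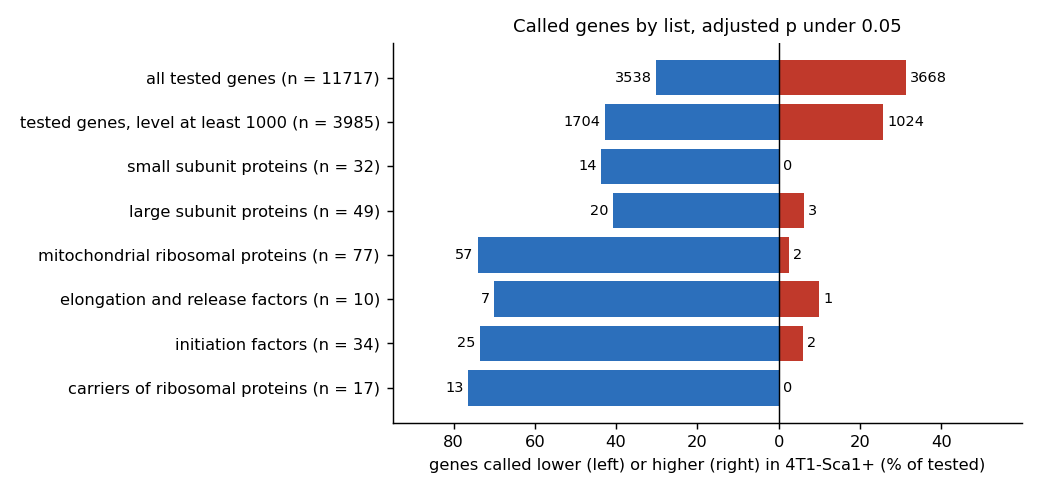
Percentage of tested genes in each list that were called lower (blue, left) or higher (red, right) in 4T1-Sca1+ at an adjusted p under 0.05, with the number of genes at the end of each bar. Ribosomal proteins of both subunits show few higher calls (0 of 32 and 3 of 49), and the lower calls are a larger share of the mitochondrial ribosomal proteins (57 of 77) and initiation factors (25 of 34).

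Markers of other cell types were checked in the same libraries. Of 12 leukocyte markers 8 were counted, 5 of them at no more than 10 counts in any library, and their summed normalized counts were 285 to 341 in 4T1-Sca1+ and 170 to 204 in 4T1-Sca1-, mostly from Cd68. Ptprc, which encodes CD45, had 2.32 ± 0.788 against 0.535 ± 0.619 normalized counts (mean ± SD) in the same order. Of 8 fibroblast markers 6 were counted, with sums of 604 to 647 and 376 to 440, mostly from Pdgfra. Of 6 endothelial markers 5 were counted, with sums of 33.8 to 40.9 and 43.4 to 63.9, and all 8 markers of mammary carcinoma cells were counted, with sums of 58605 to 64255 and 60216 to 64984. The part of these differences in the results above was not tested.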

How the data were processed

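Libraries of total RNA from 4 4T1-Sca1+ and 4 4T1-Sca1- samples were made with an Illumina TruSeq RNA kit and sequenced on a NextSeq instrument, per the labels. The submitters' processing notes name cutadapt 1.16, STAR 2.5.3a and the builds GRCm38 and mm10. The counting tool, the annotation and the use of strand are not given in the sources used here. The authors deposited raw counts for 16341 genes, plus values of normalized signal for 15372 of these, equal to the deposited counts divided by DESeq2 size factors (largest relative difference 4.88e-15). Neither table held columns of other samples.

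Symbols, positions (GRCm38) and gene types came from GENCODE mouse release M21 by Ensembl ID, with 16200 genes matched and 141 not. The raw counts entered edgeR 4.0.16 (R 4.3.3) unchanged: filterByExpr, TMM scaling, quasi-likelihood test of the groups with no covariate, two-sided, Benjamini-Hochberg adjustment over 11717 tested genes. The common biological coefficient of variation was 0.0541. Normalized counts are counts divided by DESeq2 size factors, 95% intervals are normal ones from the standard error, and the scripts were tested on simulated data. Ratios of 2 members were compared by two-sided exact permutation tests (scipy 1.17.1). Pseudogene copies were found with blastn 2.17.0. Promoter sequences came from RefSeq (GRCm38.p6), and 20 members had no entry. Alternatives were DESeq2 1.42.0, limma 3.58.1 (voom on counts, and on log2 of the deposited signal plus 1), other scalings and filters, GC and length offsets, a replicate block and leaving out each library.

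Members and lists were chosen with earlier results of these data known. Genes named are the 8 highest and 8 lowest members, every uncalled member, every member of the lists by site and paralogy, and the highest and lowest of each context list, with all elongation factors and ribosome-linked genes. Other called members are named with their range. Single values of a few of these genes are not reported here, although the genes stay in all fits and counts.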

Additional observations from a re-analysis of the deposited data

Results flagged for a closer look

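In 3 of 164 groups of 4 libraries, where chance alone would flag about 5% or 8.2 groups, 1 library stood apart from the other three by Dixon's criterion. Rps27 had 64.8 normalized counts in 4T1-Sca1+ replicate 3 and 36.5 to 41.1 in the other libraries of the group. Rpl12, a protein of the base of the stalk, had 1135 in the same library and 885 to 918 in the others. Rps18 had 318 in 4T1-Sca1- replicate 1 and 375 to 386 in the others. Rpl12 and Rps18 were not called between the groups.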

How the results depend on the processing

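Of the 38 called members 27 kept their direction and call under all 21 other fits, 11 lost the call under at least 1 (Rps14, Rpl22, Rps3, Rps27, Rps19bp1, Rpl22l1, Rps3a1, Rpl13, Rpl36a, Rpl3 and Rpsa), and 0 changed sign. The count of higher members, 4, became 7 with library totals alone, 2 with DESeq2, 2 with limma on the deposited normalized table, 1 at an adjusted p under 0.01 and 0 with a log2 change of at least 0.5 as well. With that added limit on the log2 change 8 of the 82 tested members were lower. Of all 11717 tested genes 1666 were then higher and 734 lower. Leaving out 1 library gave 2 to 4 higher and 27 to 36 lower members, 3397 to 3642 higher and 3286 to 3548 lower genes over all tested, a member median of -0.12 to -0.096 and a difference in the share of counts of -0.146 to -0.117 percentage points. The median was -0.051 with library totals alone, -0.064 with upper-quartile scaling and -0.14 with GC-corrected offsets. The cause of these shifts was not tested. Deviations of same-numbered libraries correlated at 0.0957, -0.150, -0.0339 and -0.0011. No strong effect shared by replicate number was thus seen, although this cannot show whether same-numbered libraries came from the same sort. With the replicate block 4 members were higher and 31 lower, with Rpl22, Rps14 and Rps3 no longer called.

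The differences in log2 ratio between members were recomputed with alternatives chosen after seeing the data. Leaving out 1 library gave 0.29 to 0.37 for Rpl22l1 to Rpl22, -0.42 to -0.34 for Rpl7l1 to Rpl7, 0.54 to 0.68 for Rplp2 to Rplp0, 0.42 to 0.54 for Rplp2 to Rplp1, 0.25 to 0.41 for Rpl36al to Rpl36a and -0.069 to 0.24 for Rps27l to Rps27.

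Log2 fold changes that changed sign were all of members with no call under TMM scaling. With GC-corrected offsets they were Rps20 0.027, Rpl10 0.030, Rpl5 0.080, Rps13 0.062, Rps15a 0.065, Rps18 -0.011, Rpl38 -0.19, Rps10 -0.22, Rpl35 -0.12 and Rpl8 -0.10. With library totals alone they were Rpl36 0.0090, Rpl10 0.013, Rpl5 0.027, Rpl14 0.028, Rps13 0.030 and Rps15a 0.040. With length-corrected offsets it was Rpl36 0.0087. With upper-quartile scaling they were Rpl5 0.014, Rpl14 0.015, Rps13 0.016 and Rps15a 0.027. With at least 10 counts in every library it was Rps15a 0.0086. With DESeq2 size factors they were Rps18 -0.0078, Rpl31 -0.0038 and Rpl38 -0.00091. With scaling factors computed without the members it was Rps18 -0.00089. With no low-count filter they were Rps18 -0.013, Rpl31 -0.0093, Rpl38 -0.0068 and Rps10 -0.0052. With DESeq2 they were Rps18 -0.013, Rpl31 -0.0089, Rpl38 -0.0050 and Rps10 -0.0043. With limma on the deposited normalized table they were Rps18 -0.011, Rpl31 -0.0086, Rpl38 -0.0065, Rps10 -0.0060, Rps4x -0.0036 and Rpl10a -0.00058. Of these values Rps10, Rpl35 and Rpl8 passed the threshold with GC-corrected offsets (edgeR adjusted p = 1.69e-04, 0.0210 and 0.0143), and the others did not pass it. Across fits that left out 1 library the ranges of such members were Rpl10 -0.10 to 0.038, Rpl10a -0.10 to 0.087, Rpl12 -0.068 to 0.061, Rpl14 -0.050 to 0.020, Rpl21 -0.14 to 0.042, Rpl23 -0.0068 to 0.078, Rpl31 -0.038 to 0.029, Rpl35 -0.0083 to 0.047, Rpl36 -0.12 to 0.047, Rpl36al -0.086 to 0.0019, Rpl38 -0.055 to 0.062, Rpl39 -0.16 to 0.015, Rpl5 -0.093 to 0.034, Rpl9 -0.15 to 0.038, Rps10 -0.057 to 0.060, Rps13 -0.054 to 0.0056, Rps15a -0.046 to 0.041, Rps16 -0.0031 to 0.11, Rps18 -0.073 to 0.026, Rps19 -0.015 to 0.038, Rps4x -0.030 to 0.067.

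Depth limits the weakly expressed members most, since 14 tested members had mean normalized counts under 200. No setting tried here bears on reads shared with pseudogene copies that were not counted.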
